A study of Mus musculus with 6 samples.

Results

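The phagocyte NADPH oxidase is represented here by 5 genes of its subunits, *Cybb*, *Cyba*, *Ncf1*, *Ncf4* and *Rac2*, which were chosen by name among the 39179 mouse genes listed for the bone marrow of *MxCDX2* and control mice. RNA-seq reads of total bone marrow were counted per gene in 6 littermates that were 3 months old at the start of the treatment. The 3 *MxCDX2* mice carried *RsCDX2*, in which excision of a stop at *Rosa26* frees the coding sequence of human *CDX2*, together with *Mx1Cre*, a Cre recombinase driven by the interferon-inducible *Mx1* promoter. Control 1 had *RsCDX2* alone, control 2 had *Mx1Cre* alone and control 3 was wild-type, so that each control genotype rested on a single animal. All 6 mice, controls included, had been injected 3 times into the peritoneum with poly(I:C) at 10 µg per g of body weight, given daily according to the sample labels and at longer intervals according to the methods, and RNA was taken 6 weeks afterwards. The *Mx1* promoter responds to interferon in many cell types, and total bone marrow mixes all hematopoietic lineages.

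The oxidase makes superoxide from oxygen with electrons of NADPH, and phagocytes use it to kill ingested microbes. In the membrane, the catalytic gp91phox, encoded by *Cybb*, and p22phox, encoded by *Cyba*, form the heme-containing flavocytochrome b558. In resting cells the organizer p47phox (*Ncf1*) and p40phox (*Ncf4*) wait in the cytosol, and on activation they join the flavocytochrome together with the small GTPase Rac2. The genes are strongly expressed in neutrophils and are also used by monocytes and macrophages. Loss of *CYBB*, *CYBA*, *NCF1* or *NCF4* in humans causes chronic granulomatous disease.

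Between 38646101 and 49899650 reads per mouse were counted on genes, and each subunit had between 11148 and 67827 counts in every mouse, so that the spread between mice and not the depth limited the precision. Reads of the human transgene could have been counted on mouse *Cdx2*. That gene had 4, 0 and 0 counts in controls 1, 2 and 3 and 152, 155 and 183 counts in *MxCDX2* mice 1, 2 and 3. The wild-type mouse stood apart from the other controls, with a summed level of megakaryocyte markers of 265084 normalized counts against 22584 and 32068, and of promyelocyte markers of 33909 against 143156 and 181221. The subunit genes and the cell type markers are therefore also given without this mouse.

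None of the 5 subunit genes was differentially expressed between *MxCDX2* and control mice. A gene was said to rise or fall when its absolute log2 fold change was above 1 and its adjusted p-value below 0.05 (quasi-likelihood test of edgeR, adjusted by Benjamini-Hochberg over 15980 genes), and 13.6% of all tested genes did so. At any fold, 0 of the 5 subunit genes had an adjusted p-value below 0.05, against 21.7% of all tested genes. Without adjustment, 1 of the 5 had a p-value below 0.05 with edgeR and likewise with DESeq2, against 36.1% of all tested genes with edgeR. The log2 fold changes ran from -0.38 to 0.24 with a median of -0.22, while the median over all tested genes was 0.002. All 5 genes had a 95% interval of the log2 fold change between -1 and 1, which held for 48.6% of all tested genes. In 2 of the 5 genes, *Cyba* and *Rac2*, the *MxCDX2* mice did not overlap with the controls, against 42.1% of all tested genes. As these are bulk samples, fewer cells of a type and less RNA per cell cannot be told apart.

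**Figure D1:**
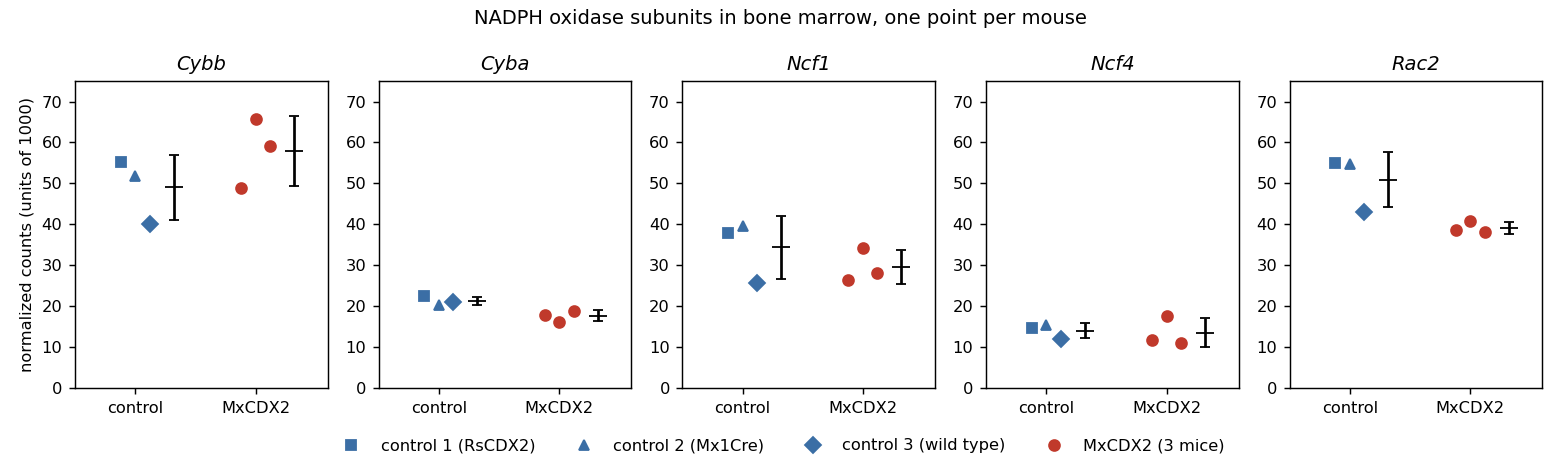
Normalized counts (vertical axis from 0, in units of 1000) of the 5 subunit genes in each mouse, with control genotypes as separate symbols and the mean ± SD of each group of 3 mice beside the points. The *MxCDX2* mice lie below all controls for *Cyba* and *Rac2*, and the wild-type mouse is the lowest control for every gene except *Cyba*.

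In the membrane flavocytochrome, the 2 subunits had opposite signs, neither past the thresholds. *Cybb* (ENSMUSG00000015340, chrX:9435252-9487771, minus strand, GRCm38, 13 exons in its principal transcript) had 55236, 51718 and 40086 normalized counts in controls 1, 2 and 3 and 48890, 65708 and 59044 in *MxCDX2* mice 1, 2 and 3. The groups overlapped, since *MxCDX2* mouse 1 lay below controls 1 and 2. The means were 49013 ± 7929 and 57881 ± 8469 (SD, n = 3 each), with a log2 fold change of 0.24 ± 0.19 (SE), a 95% interval from -0.22 to 0.70 and an adjusted p-value of 0.428 (edgeR's quasi-likelihood test). With the wild-type control left out, the log2 fold change of *Cybb* was 0.13 and the adjusted p-value 0.599 (edgeR).

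*Cyba* (ENSMUSG00000006519, chr8:122424776-122432930, minus strand, 6 exons) encodes the partner that stabilizes gp91phox and anchors p47phox. Its levels were 22390, 20409 and 21080 normalized counts in the controls and 17791, 16238 and 18915 in the *MxCDX2* mice. Every *MxCDX2* mouse lay below every control, and the group means were 21293 ± 1007 and 17648 ± 1344 (SD, n = 3 each). The log2 fold change was -0.27 ± 0.12 (SE), with an adjusted p-value of 0.143 (edgeR), and the exact permutation test gave a two-sided p of 0.1, the smallest that 3 mice against 3 allow. The log2 fold change of *Cyba* was -0.26 with the wild-type control left out (adjusted p = 0.12, edgeR).

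The cytosolic subunits overlapped between the groups. *Ncf1* (ENSMUSG00000015950, chr5:134220053-134229625, minus strand, 11 exons), the organizer whose phosphorylation starts the assembly, had 37790, 39638 and 25628 normalized counts in the controls and 26406, 34334 and 28020 in the *MxCDX2* mice. Controls 1 and 2 lay above every *MxCDX2* mouse, and the overlap came from the wild-type mouse alone, which was the lowest of all 6. The log2 fold change was -0.22 ± 0.21 (SE), with a 95% interval from -0.71 to 0.28 and an adjusted p-value of 0.508 (edgeR). With the wild-type control left out, the log2 fold change of *Ncf1* was -0.37 and the adjusted p-value 0.132 (edgeR). The 3′ part of *Ncf1*, 4303 bases or 44.9% of the locus and 408 of its exon bases, overlaps *Gtf2ird2* on the opposite strand, which had at most 2279 counts in a mouse. The strand setting of the counting was not given, so reads of the overlap cannot be assigned.

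*Ncf4* (ENSMUSG00000071715, chr15:78244801-78262580, plus strand, 10 exons) encodes p40phox, which binds a phosphoinositide of the phagosome membrane. It had 14669, 15417 and 11988 normalized counts in the controls and 11809, 17578 and 11120 in the *MxCDX2* mice. *MxCDX2* mouse 2 was the highest of all 6 and the other two *MxCDX2* mice were the lowest. The log2 fold change was -0.05 ± 0.21 (SE), with a 95% interval from -0.54 to 0.43 and an adjusted p-value of 0.879 (edgeR), and its sign depended on the scaling and on single mice. It was -0.14 with the wild-type control left out (adjusted p = 0.695, edgeR).

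*Rac2* (ENSMUSG00000033220, chr15:78559167-78572783, minus strand, 7 exons) encodes the hematopoietic Rac GTPase that activates the oxidase and also steers the actin cytoskeleton. It had the most negative log2 fold change of the 5 genes. Its levels were 55030, 54713 and 43071 normalized counts in the controls and 38557, 40805 and 38111 in the *MxCDX2* mice. All *MxCDX2* mice lay below all controls, and the means were 50938 ± 6815 and 39158 ± 1444 (SD, n = 3 each). The log2 fold change was -0.38 ± 0.16 (SE), with a 95% interval from -0.75 to -0.01, an unadjusted p of 0.0457 and an adjusted p of 0.131 (edgeR). With the wild-type mouse left out, *Rac2* had a log2 fold change of -0.47 and an adjusted p-value of 0.0283 (edgeR), the only one of 14 alternative settings in which any of the 5 genes had an adjusted p-value below 0.05, and still short of the fold threshold. When counts were scaled by total counts only, the median of all tested genes moved by 0.116 on the log2 scale, and the log2 fold changes of *Cybb*, *Cyba* and *Rac2* became 0.37, -0.15 and -0.26.

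Abundant genes did change in these mice. Of the 525 tested genes with a mean level at least that of the lowest subunit gene, 80 passed both thresholds, 33 higher and 47 lower in *MxCDX2* mice. An absolute log2 fold change no larger than that of *Rac2* was found in 56.0% of these 525 genes and in 49.5% of all tested genes.

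Per length of the principal transcript, *Cyba* was the most abundant subunit mRNA in both groups. In controls the normalized counts per kb were 28620 ± 1354 for *Cyba*, 16767 ± 2243 for *Rac2*, 12625 ± 2797 for *Ncf1*, 10314 ± 1669 for *Cybb* and 9580 ± 1232 for *Ncf4* (SD, n = 3 each). Of the neighbours in this order, only *Cyba* and *Rac2* had ranges that did not overlap. In *MxCDX2* mice the levels per kb were 23721 ± 1807 for *Cyba*, 12889 ± 475 for *Rac2*, 12180 ± 1782 for *Cybb*, 10874 ± 1540 for *Ncf1* and 9223 ± 2422 for *Ncf4* (SD, n = 3 each), again with only the first neighbours apart. *Cybb* thus stood below *Ncf1* in controls and above it in *MxCDX2* mice, with overlapping ranges in both groups. The order depends on the length used, since per kb of coding sequence *Rac2* came first in both groups.

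The balance between the subunits was compared within each mouse, where the scaling of the library cancels. *Cybb* had higher ratios to *Cyba*, *Ncf1* and *Rac2* in every *MxCDX2* mouse than in any control. The log2 ratio of *Cybb* to *Rac2* counts, not corrected for length, was 0.01, -0.08 and -0.10 in the controls and 0.34, 0.69 and 0.63 in the *MxCDX2* mice, a difference of 0.61 or 1.53-fold. The log2 ratio of *Cybb* to *Cyba*, the partners of the flavocytochrome, was 1.19 ± 0.23 in controls and 1.71 ± 0.28 in *MxCDX2* mice (SD, n = 3 each), a 1.43-fold difference. The ratio of *Cybb* to *Ncf1* differed 1.36-fold, and that of *Ncf4* to *Rac2* 1.23-fold. The log2 difference of *Ncf4* to *Rac2*, 0.29 over all mice, was 0.12 with *MxCDX2* mouse 2 left out.

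These were the 4 of 10 pairs whose ratios did not overlap between the groups. Each reached the smallest two-sided p of 0.1 that the exact permutation test allows, or 0.25 after adjustment over the 10 pairs. The pairs share genes and are not independent, and the share of other gene pairs without overlap was not computed. Among single genes, 42.1% of all tested ones did not overlap. The ratio of *Cybb* to *Ncf4* was 1.25-fold higher with overlapping groups (exact permutation p = 0.2), a log2 difference of 0.32 that was 0.18 with *MxCDX2* mouse 3 left out. The other 5 pairs overlapped too, with log2 differences from -0.20 to 0.17. With each mouse left out in turn, 4 or 5 pairs did not overlap. Leaving out a mouse cannot make separate groups overlap, so this count could not fall below 4. Of the summed level per kb of the 5 genes, *Cybb* made up 12.3% to 13.9% in controls and 15.9% to 18.8% in *MxCDX2* mice.

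**Figure D2:**
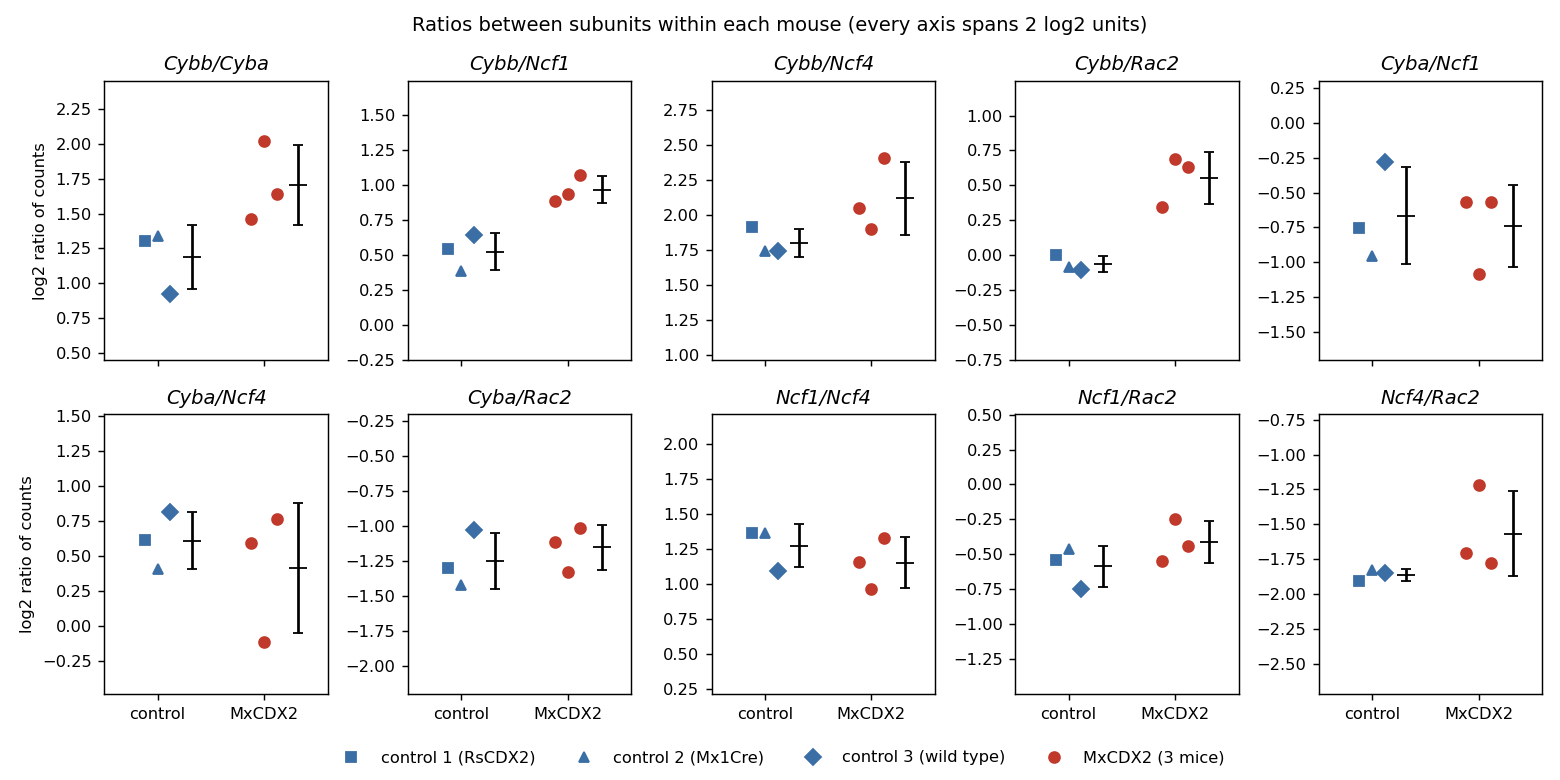
Log2 ratio of the counts of each pair of subunit genes within each mouse (vertical axes differ in position and each spans 2 log2 units), with the mean ± SD of each group of 3 mice beside the points. The *MxCDX2* mice lie above all controls for *Cybb* over *Cyba*, *Ncf1* and *Rac2* and for *Ncf4* over *Rac2*, and the other 6 pairs overlap.

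The 5 genes were read beside markers of the bone marrow cells that could carry them. Of all tested genes, 13.6% passed both thresholds. Neutrophil markers fell in 9 of 11 genes and rose in none, with a median log2 fold change of -1.59, and their summed level was 2095790 to 3275450 normalized counts in controls and 852309 to 1173720 in *MxCDX2* mice. Monocyte markers rose in 6 of 8 genes and fell in none, with a median of 2.07 and sums of 42949 to 64603 in controls and 280322 to 337621 in *MxCDX2* mice. Among them, *Csf1r*, the receptor of the macrophage growth factor, had a log2 fold change of 2.08 (adjusted p = 0.0020, edgeR), and *S100a8*, a calcium-binding protein abundant in neutrophils, of -1.53 (adjusted p = 0.017, edgeR).

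Of the other cell types, 2 of 6 promyelocyte markers rose (*Ctsg* and *Ms4a3*). *Prtn3* and *Mpo* had log2 fold changes of 0.78 and 0.31, and *Elane* and *Prss57* of -0.31 and -1.15, without passing. Falls were found in 5 of 8 macrophage, 4 of 8 B cell and 2 of 7 T and NK cell markers. Of megakaryocyte and erythroid markers, 3 of 6 and 19 of 19 fell. Both thresholds were passed by 0 of 5 eosinophil markers and by 13.6% of all tested genes. Summed macrophage markers were 23108 to 68543 normalized counts in controls and 12266 to 17350 in *MxCDX2* mice, and summed erythroid markers 2070890 to 2417230 and 59828 to 242383. With the wild-type control left out, 11 neutrophil, 4 macrophage, 7 B cell, 4 megakaryocyte and 1 promyelocyte markers fell, and 6 monocyte, 2 promyelocyte and 1 macrophage markers rose. The promyelocyte marker that then fell was *Prss57*, with a log2 fold change of -1.49 (adjusted p = 0.0064, edgeR). *Elane* then had -0.77 (adjusted p = 0.027, edgeR), short of the fold threshold. Neutrophil markers fell in 5 genes without *MxCDX2* mouse 3 and erythroid markers in 10, while 5 or 6 monocyte markers rose with any mouse left out. The counts of the smaller lists went to 0 for macrophage and T and NK cell markers without *MxCDX2* mouse 2, for B cell markers without control 2 or *MxCDX2* mouse 3, for megakaryocyte markers without any 1 of the *MxCDX2* mice, and for promyelocyte markers without control 2 or any 1 of the *MxCDX2* mice. Every marker measured had counts in at least 1 mouse. The part of these markers in the levels and ratios of the subunit genes, and in those of the pathway genes, was not tested. With the erythroid markers left out of the scaling, 0 of the 5 subunit genes passed the thresholds.

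**Figure D3:**
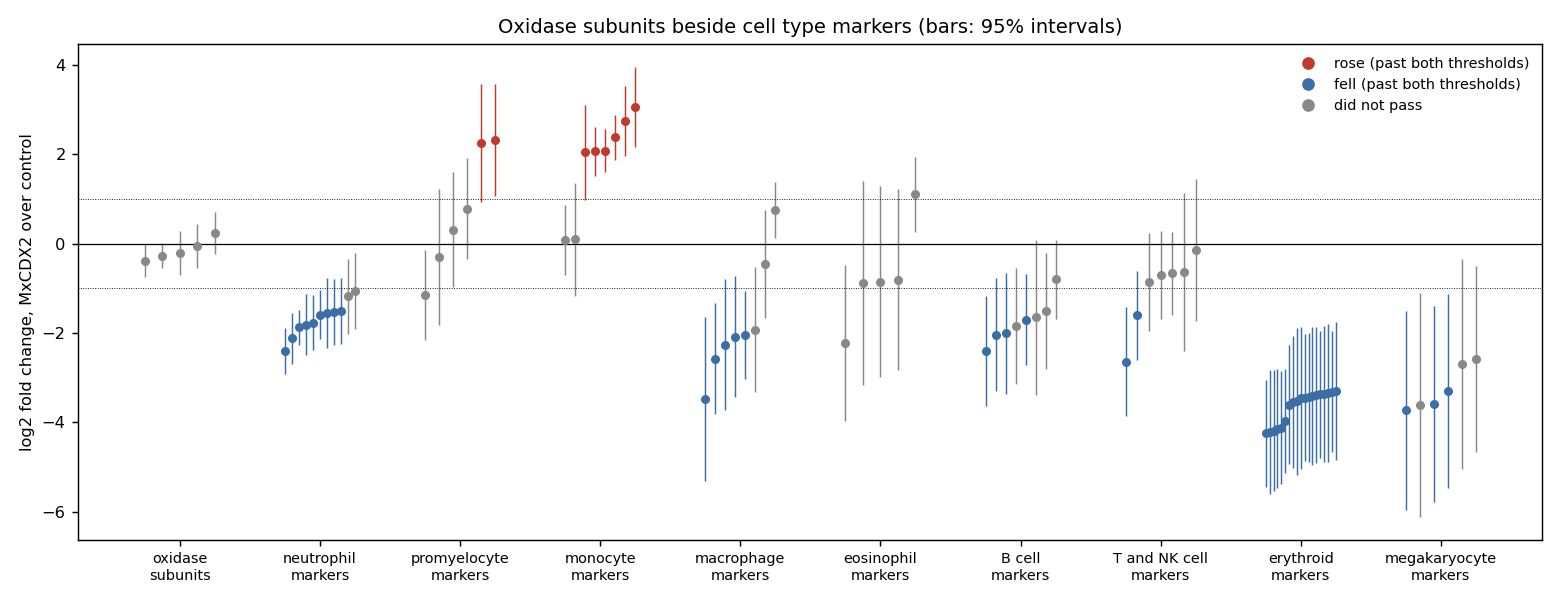
Log2 fold change between *MxCDX2* and control mice (vertical axis, bars are 95% intervals) of the 5 oxidase subunit genes and of the tested genes of 9 marker lists, with dotted lines at -1 and 1. The subunit genes lie between -0.38 and 0.24, while 9 of 11 neutrophil markers fell and 6 of 8 monocyte markers rose.

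Of 61 other genes of the oxidase pathway in 8 lists, 53 were tested, 3 rose and 5 fell, with a median log2 fold change of 0.05. The 8 genes that passed were 15.1% of those tested, near the 13.6% of all tested genes. At any fold, 17 had an adjusted p-value below 0.05, or 32.1% against 21.7% of all tested genes, a count that ran from 6 without *MxCDX2* mouse 3 to 25 without the wild-type control. *Rac1*, the ubiquitous relative of *Rac2*, had 16292, 15109 and 23065 normalized counts in controls and 22925, 20806 and 25072 in *MxCDX2* mice, and its log2 fold change was 0.34 (adjusted p = 0.25, edgeR). Without the wild-type control, *Rac1* had a log2 fold change of 0.56 (adjusted p = 0.018, edgeR), short of the fold threshold. *Cybc1*, needed for the maturation of the flavocytochrome, and *Rap1a*, a small GTPase found with it, had values of 0.58 and -0.44 without passing.

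The regulators of the GTPase formed a list of 7 genes, 0 of which passed both thresholds, but 4 had an adjusted p-value below 0.05 at any fold and are named here after their values were seen (21.7% of all tested genes had such a value). The exchange factors *Dock2*, *Vav3* and *Vav1*, which load Rac with GTP, had log2 fold changes of 0.68, 0.47 and 0.43 (adjusted p = 0.018, 0.020 and 0.036, edgeR). *Arhgap25*, which inactivates Rac, had a log2 fold change of -0.44 (adjusted p = 0.028, edgeR). *Dock2* had 17235, 18855 and 13992 normalized counts in controls and 26322, 27169 and 26731 in *MxCDX2* mice, with no overlap. *Arhgdib*, the inhibitor that holds Rac in the cytosol, had a log2 fold change of -0.24 (adjusted p = 0.408, edgeR).

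Of the 8 surface receptors that trigger the burst, 2 fell and 1 rose, while 13.6% of all tested genes passed both thresholds. The formyl peptide receptors *Fpr1* and *Fpr2*, which sense bacterial peptides, had log2 fold changes of -2.14 and -2.10 (adjusted p = 0.0018 and 0.00054, edgeR). *Fpr1* had 6024, 6356 and 4401 normalized counts in controls and 1111, 1541 and 1162 in *MxCDX2* mice. *Clec7a*, which encodes the beta-glucan receptor dectin-1, rose with a log2 fold change of 2.27 (adjusted p = 0.0030, edgeR), from 3201, 4158 and 3956 normalized counts to 11786, 23335 and 19498. The integrin subunits *Itgam* and *Itgb2*, the complement receptor found on both neutrophils and monocytes, had log2 fold changes of -0.48 and -0.33 and did not pass.

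Both thresholds were passed by 13.6% of all tested genes. Of the 12 signalling genes, only *Prkcb*, a protein kinase C isoform that phosphorylates p47phox, passed them, and it fell by 1.42 on the log2 scale (adjusted p = 0.0056, edgeR). Its normalized counts were 6594, 6661 and 4287 in controls and 2574, 2047 and 1913 in *MxCDX2* mice. *Prkcd*, another isoform with the same substrate, had a log2 fold change of 0.83 (adjusted p = 0.025, edgeR), short of the fold threshold, with 14411, 18955 and 11846 normalized counts in controls and 26753, 28834 and 24700 in *MxCDX2* mice. The 2 isoforms thus lay on opposite sides, and neither overlapped between the groups. *Mapk14*, the p38 kinase, had a log2 fold change of 0.40 (adjusted p = 0.048, edgeR).

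Of the 7 enzymes that supply NADPH, 1 rose, *Idh1*, the cytosolic isocitrate dehydrogenase, with a log2 fold change of 1.29 (adjusted p = 0.0029, edgeR). The pentose phosphate enzymes *Tkt* and *Taldo1* had -0.33 and -0.16 and did not pass. Of the 6 genes that handle the products of the burst, 2 fell. Beside these 2 lists, 13.6% of all tested genes passed both thresholds. *Cat*, the heme enzyme catalase that breaks down hydrogen peroxide, fell by 1.31 on the log2 scale (adjusted p = 0.0020, edgeR), from 12104, 12314 and 11423 normalized counts in controls to 5331, 4079 and 5024. *Hvcn1*, the proton channel that compensates the charge moved by the oxidase and is also expressed in B cells, fell by 1.21 (adjusted p = 0.031, edgeR), a call that was lost in 4 of the 6 fits that left out a mouse, those without control 1, control 2, *MxCDX2* mouse 2 or *MxCDX2* mouse 3. *Mpo*, which makes hypochlorous acid and also stands in the promyelocyte list, had a log2 fold change of 0.31 (adjusted p = 0.725, edgeR), with 76497, 63396 and 14673 normalized counts in controls and 65632, 68472 and 57529 in *MxCDX2* mice, so that the wild-type mouse alone was low. Without that mouse its log2 fold change was -0.11 (adjusted p = 0.634, edgeR).

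Of the 9 genes of other NADPH oxidases, which serve epithelia, vessels and thyroid, 1 passed the filter on low counts. It was *Noxo1*, with 14 to 32 counts per mouse, and *Nox3* and *Duoxa2* were at 0 counts in all 6 mice.

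**Figure D4:**
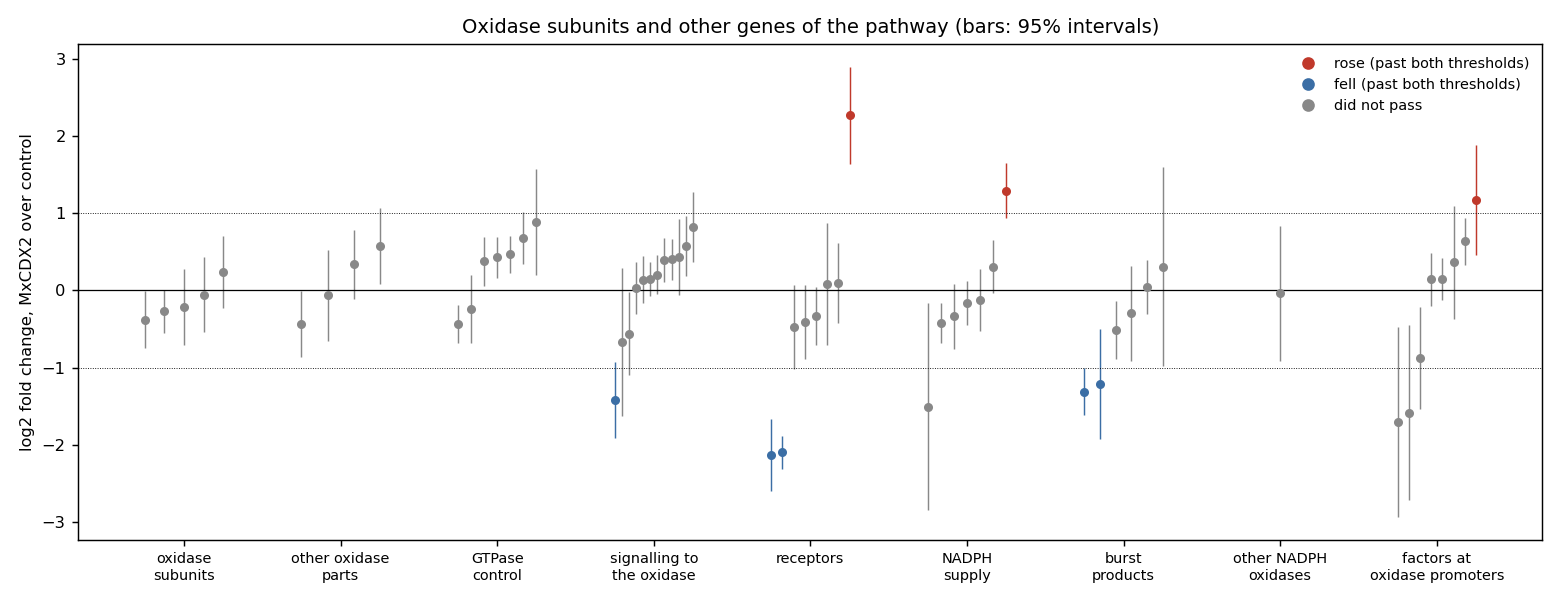
Log2 fold change between *MxCDX2* and control mice (vertical axis, bars are 95% intervals) of the 5 oxidase subunit genes and of the 53 tested genes of 8 pathway lists, with dotted lines at -1 and 1. The subunit genes lie near 0, while *Clec7a*, *Idh1* and *Irf8* rose and *Fpr1*, *Fpr2*, *Prkcb*, *Cat* and *Hvcn1* fell.

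Among 8 transcription factors described at the promoters of oxidase genes, 1 passed both thresholds over all 6 mice, against 13.6% of all tested genes. That was *Irf8*, a factor of the monocyte lineage. It had 8706, 12780 and 17750 normalized counts in controls and 22646, 37140 and 28423 in *MxCDX2* mice, with a log2 fold change of 1.17 (adjusted p = 0.035, edgeR). The groups did not overlap, and the call was lost in 4 of the 6 fits that left out a mouse, those without control 1, control 2, *MxCDX2* mouse 2 or *MxCDX2* mouse 3. *Spi1*, which encodes the myeloid factor PU.1, had a log2 fold change of 0.14 (adjusted p = 0.536, edgeR), and *Cebpe*, a factor of late granulocytes, of -0.88 (adjusted p = 0.065, edgeR). With the wild-type mouse left out, *Cebpe* passed both thresholds too, with a log2 fold change of -1.13 (adjusted p = 0.0022, edgeR).

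Promoters of the subunit genes were therefore read for short motifs of PU.1, of IRF and GATA factors and of CDX proteins. No motif was searched for the other factors, *Cebpe* among them. The RefSeq promoter table (GRCm38.p6) held 3 of the 5 genes, and the 250 bases before each start are shown with every motif match in capitals, 5′ to 3′ on the strand of the gene. The windows are chrX:9469325-9469574 for *Cybb*, chr8:122432941-122433190 for *Cyba* and chr5:134229626-134229875 for *Ncf1*, all on the minus strand. *Ncf4* and *Rac2* are named only.
Cybb: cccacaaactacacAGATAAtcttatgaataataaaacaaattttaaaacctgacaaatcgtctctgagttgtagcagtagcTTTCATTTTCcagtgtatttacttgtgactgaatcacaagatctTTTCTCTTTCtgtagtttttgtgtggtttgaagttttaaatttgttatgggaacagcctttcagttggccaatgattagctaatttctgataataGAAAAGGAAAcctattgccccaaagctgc
Cyba: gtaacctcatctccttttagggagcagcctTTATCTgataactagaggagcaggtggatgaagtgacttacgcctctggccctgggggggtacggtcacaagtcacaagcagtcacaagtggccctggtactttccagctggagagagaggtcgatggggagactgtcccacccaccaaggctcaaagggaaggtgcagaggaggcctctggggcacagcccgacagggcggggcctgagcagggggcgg
Ncf1: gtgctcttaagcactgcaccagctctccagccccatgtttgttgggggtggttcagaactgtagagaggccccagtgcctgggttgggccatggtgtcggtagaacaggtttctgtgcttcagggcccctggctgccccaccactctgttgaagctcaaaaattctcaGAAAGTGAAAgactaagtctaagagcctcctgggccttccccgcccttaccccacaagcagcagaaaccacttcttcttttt

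Motifs were searched on both strands in 300 bases, these 250 and the 50 that follow the start. The IRF element was spelled as GAAA, any 2 bases and GAAA. It occurred 3 times in *Cybb*, with first bases 168, 124 and 29 bases before the start, and once in *Ncf1*, 82 bases before the start, and *Cyba* had no match. Of 27025 promoters of the same length, 3.49% held at least 1 such element, and 4 promoters held 3 or more. The PU.1 core GAGGAA was found in *Cybb* alone, 10 bases after the start on the opposite strand, and in 28.3% of all promoters.

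The CDX core CATAAA was in none of the 3 windows and in 12.1% of all promoters. The GATA core AGATAA was found once in *Cybb* and once in *Cyba*, and in 11.4% of all promoters. No match overlapped another. G and C made up 34.0% of the *Cybb* window, 60.0% of the *Cyba* window and 54.4% of the *Ncf1* window, with a median of 52.0% over all promoters. A match describes the letters of the window only.

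*Ncf4* and *Rac2* lie on the same chromosome, 296586 bases apart, with 10 protein-coding genes between them, of which 8 were tested. *Kctd17* rose with a log2 fold change of 1.55 (adjusted p = 0.029, edgeR) and *Tst*, a mitochondrial sulfurtransferase, fell by 1.08 (adjusted p = 0.0088, edgeR). The neighbours of *Ncf4* are *Csf2rb2* and *Csf2rb*, which encode beta chains in the family of receptors for GM-CSF, IL-3 and IL-5. *Csf2rb* had 14587, 11271 and 9892 normalized counts in controls and 23013, 22860 and 22454 in *MxCDX2* mice, with a log2 fold change of 0.93 (adjusted p = 0.0098, edgeR), short of the fold threshold. *Csf2rb2*, its close paralogue, had a log2 fold change of 0.76 (adjusted p = 0.030, edgeR), and reads that fit both genes may be missing from the counts. *Mpst*, which lies beside *Tst*, had a log2 fold change of -0.92 (adjusted p = 0.0022, edgeR). *Tmprss6*, *Il2rb* and *C1qtnf6* had values of -0.30, -0.34 and 0.19 without passing, and *Tex33* and *Sstr3* had too few counts to be tested. The 2 oxidase genes at the ends of the region thus had smaller absolute changes than *Csf2rb*, *Csf2rb2*, *Mpst*, *Tst* and *Kctd17*. The absolute changes of *Tmprss6*, *Il2rb* and *C1qtnf6* were smaller than that of *Rac2* and larger than that of *Ncf4*.

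The genes whose levels followed each subunit most closely were sought among the 11981 genes whose mean level reached 100 normalized counts, by Pearson's r of log2 levels over the 6 mice, as a description. They were *Ranbp9*, *Lcmt2* and *A430072P03Rik* for *Cybb* (r = 0.986, 0.984 and 0.978) and *Setd3*, *Mob4* and *Mt2* for *Cyba* (r = 0.994, 0.993 and 0.982). For *Ncf1* they were *Rogdi*, *Rtel1* and *Cntrob* (r = 0.989, 0.989 and 0.988), for *Ncf4* *4632427E13Rik*, *2700099C18Rik* and *Angel2* (r = 0.974, 0.969 and 0.968), and for *Rac2* *Olfml2b*, *Svil* and *Gmeb2* (r = 0.997, 0.996 and 0.996). The 6 values come from 2 groups and the same libraries, and no subunit gene was among the 3 closest genes of another.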

How the data were processed

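The authors aligned stranded mRNA-seq reads with STAR (version 2.5) to GRCm38 with Ensembl 90 annotation with reads per gene taken from HTSeq (version 0.6.1), and the deposited files hold raw counts. Reads of no gene or of several genes, 12.2% to 17.1% per mouse, were left out. Symbols and positions came from GENCODE M21. Counts were tested in R 4.3.3 with edgeR 4.0.16 (TMM, filterByExpr, glmQLFTest), without replicate block, and DESeq2 1.42.0 was an alternative. Standard errors were derived from the F statistic. Normalized counts refer to the mean of the 6 TMM-adjusted library sizes. Likeness used log2 of normalized counts plus 1.

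The subunit genes and all lists were chosen with earlier results of these data known. Named genes were the 5 subunits, the genes of each list that passed and up to 2 others of highest level per length, genes between *Ncf4* and *Rac2*, and the 3 genes most alike each subunit. Of the marker lists, examples are given, and *Prss57* was named in addition after its values were seen. Some genes of the lists are not reported here by name.

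Replicate numbers came from the sample number of control labels and the mouse number of *MxCDX2* labels. Same-numbered mice deviated together (r = 0.17, 0.29 and 0.18), which met the criterion for pairing (every r above 0.1). Differently numbered mice had r from -0.33 to 0.103, the highest for control 1 with *MxCDX2* mouse 3, which lies above 0.1 as well. Deviations were taken from the group means, so these values depend on each other. Nothing else says that a number marks a shared litter or day. The main fit and the permutation tests were therefore unpaired, and the replicate block was an alternative. The p-values set a difference between the groups against the spread between these mice. Among the controls, genotype and animal cannot be told apart in that spread. The edgeR test was tried on simulated data, with planted changes larger than those of the subunit genes. The permutation tests and DESeq2 were not tried in this way. Python 3.11.15 was used for tables and figures, with pandas 2.3.3, numpy 2.4.6, scipy 1.17.1 and matplotlib 3.10.9.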

Additional observations from a re-analysis of the deposited data

How the results depend on the processing

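In each of the alternatives, 0 of the 5 subunit genes passed both thresholds. These were DESeq2, its size factors in edgeR, total counts only, scaling without erythroid markers or without the 10 most abundant genes, a filter of 1 count in all, a filter of 10 counts per mouse, the replicate block, and each mouse left out in turn. Over them the log2 fold changes ran from 0.13 to 0.37 for *Cybb*, -0.32 to -0.15 for *Cyba*, -0.37 to -0.09 for *Ncf1* and -0.47 to -0.26 for *Rac2*. *Ncf4* changed sign, to 0.071 with total counts only, and ran from -0.29 to 0.072 with each mouse left out. With the replicate block, 0 subunit genes and 8 pathway genes passed, the same numbers as without it.

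Of the other pathway genes, 8 passed both thresholds and 17 at any fold, 10 passed with DESeq2, and 6 to 9 with each mouse left out. The count at any fold was 14 with the replicate block and ran from 6 to 25 with each mouse left out. With each mouse left out, the differences of the log2 ratios of *Cyba* to *Ncf1* and of *Cyba* to *Ncf4* ran from -0.22 to 0.12 and from -0.37 to 0.069. The cause of these changes of sign was not tested. Beside transcript length, merged exons and coding length were used for the order of levels, chosen after seeing the data. With merged exons *Cyba* stayed first in both groups. With 3 mice against 3, the exact permutation test cannot go below 0.1, and the 95% intervals leave room for changes of up to -0.75 for *Rac2* and 0.70 for *Cybb* on the log2 scale.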
